A study of Mus musculus with 4 samples.

Results

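The wide PPARγ peaks of one alveolar macrophage library that a replicate library did not contain are described here. PPARγ binding was mapped in mouse alveolar macrophages (AMs) by HT-ChIPmentation, a form of ChIP-seq whose sequencing adapters are inserted by Tn5 into bead-bound chromatin. The AMs came from wild-type C57BL/6J mice by bronchoalveolar lavage and were sorted by flow cytometry. There was 1 ChIP group of 2 libraries with no treatment or genotype contrast. Their titles are PPARG_k1 and PPARG_k2_AMS2, and they are called library 1 and library 2 (or replicates 1 and 2) in what follows. Only the second ChIP and its input carry the tag AMS2, which the labels do not explain. An input library went with each, but the inputs enter here only through the authors' peak calls. Whether each library had its own mice is not given in the labels, so the intervals and p-values below cover the spread over peaks only.

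The members were chosen by measured values, the width of a peak and its overlap with the other list. They are the library 1 peaks of at least 300 bp that share not even 1 bp with any library 2 peak. There were 9487 of them among 83787 library 1 peaks, and library 2 had 28535 peaks. Whether a member is missing from library 2 because that list is shorter was not tested. Members made up 37.1% of the 25589 library 1 peaks of that width. The corresponding share was 88.9% among narrower library 1 peaks and 73.1% among library 1 peaks of any width. The comparisons below set the 9487 members against the 16102 wide library 1 peaks that library 2 shared and, where it helps, against the 51749 narrow library 1 peaks that it did not.

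PPARγ is a nuclear receptor that senses fatty acid derivatives and binds DNA as a heterodimer with RXR. The pair recognises the DR1 element, a direct repeat of the hexamer AGGTCA with a single base between the copies. In macrophages many PPARγ sites lie beside sites of PU.1 and C/EBP, the factors that open macrophage enhancers, and in AMs the receptor drives lipid handling and tissue identity. CTCF, in contrast, is an architectural protein that anchors chromatin loops in every cell type.

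The sequences at the summits of a few members show the elements on which the motif results turn. Each comes from a member that holds the motif within 100 bp of its summit (a strong one, except for the exact DR1, of which there was 1), and was read from the RefSeq copy of mm10 on the plus strand, 5′ to 3′. Capitals mark the motif, which reads in reverse complement where it lies on the minus strand. The first 4 hold the macrophage factor and AP-1 motifs and the CTCF motif, the next 2 hold a DR1 element, and the last 3 are promoters.
PU.1, Rnf169, chr7:99962953-99963033: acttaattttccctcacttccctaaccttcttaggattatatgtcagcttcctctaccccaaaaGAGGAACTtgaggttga
C/EBP, Pilra, chr5:137820929-137821009: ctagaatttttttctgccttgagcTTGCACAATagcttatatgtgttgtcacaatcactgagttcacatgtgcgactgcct
AP-1, Arid5a, chr1:36325907-36325987: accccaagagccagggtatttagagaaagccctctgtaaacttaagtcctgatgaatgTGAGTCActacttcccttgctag
CTCF, Taldo1, chr7:141394910-141395038: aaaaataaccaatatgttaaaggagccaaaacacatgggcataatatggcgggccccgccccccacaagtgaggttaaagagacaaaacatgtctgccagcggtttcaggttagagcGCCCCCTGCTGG
DR1, Pitx1, chr13:55895607-55895691: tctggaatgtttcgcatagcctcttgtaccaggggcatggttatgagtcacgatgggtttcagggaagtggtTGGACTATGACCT
exact DR1, Ankdd1a, chr9:65533784-65533924: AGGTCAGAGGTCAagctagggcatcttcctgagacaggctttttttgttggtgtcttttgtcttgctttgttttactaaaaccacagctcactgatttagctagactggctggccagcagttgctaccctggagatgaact
ETS, Fam32a, chr8:72219633-72219713: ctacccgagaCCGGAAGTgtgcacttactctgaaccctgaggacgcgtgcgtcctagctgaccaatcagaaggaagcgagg
E-box, Morc2a, chr11:3649095-3649175: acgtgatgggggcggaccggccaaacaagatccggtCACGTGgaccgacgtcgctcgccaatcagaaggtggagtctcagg
CRE, Bnip3l, chr14:67008883-67008963: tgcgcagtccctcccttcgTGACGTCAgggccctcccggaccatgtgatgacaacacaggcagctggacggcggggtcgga

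The PU.1 site lies in an intron of Rnf169, which encodes a ubiquitin ligase of the DNA damage response, in a member with a fold enrichment of 12.7. The C/EBP site lies in an intron 15.3 kb from the TSS of Pilra, an inhibitory receptor of myeloid cells, in a member with a fold enrichment of 11.996. The AP-1 site lies in the strongest member of all, an intergenic peak 18.2 kb from the TSS of Arid5a, whose product stabilises inflammatory transcripts. The CTCF site lies in an intron of a member with a fold enrichment of 9.77, whose nearest coding TSS, 2.79 kb away, is that of Taldo1, an enzyme of the pentose phosphate pathway. The DR1 site assigned to Pitx1 is an imperfect copy in an intergenic member 64.2 kb from the TSS. The site near Ankdd1a, 13.7 kb from the TSS, is the single exact DR1 within 100 bp of a member summit. Its centre lies 94 bp from that summit, near the edge of the window. The ETS site lies in the Fam32a promoter, the E-box in the Morc2a promoter and the CRE in the promoter of Bnip3l, which encodes a mitophagy receptor.

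The members were weaker and narrower than the shared peaks of the same class, which describes the selection and is not a result. Fold enrichment is the authors' linear ratio of signal to control for each peak. Its median was 5.33 in members, with a highest value of 17.2, against a median of 7.70 and a highest value of 45.3 in wide shared peaks. The median width was 407 bp in members and 681 bp in wide shared peaks. Just inside the width limit, the 1169 unshared peaks of 300 to 319 bp had a median fold enrichment of 4.74, and just outside it the 1382 unshared peaks of 280 to 299 bp had the same median of 4.74. The unshared share of wide library 1 peaks was 66.7% at widths of 300 to 349 bp and 1.20% from 1500 bp. It was 65.8% below a fold enrichment of 4 and 0.680% from 12.

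**Figure D1:**
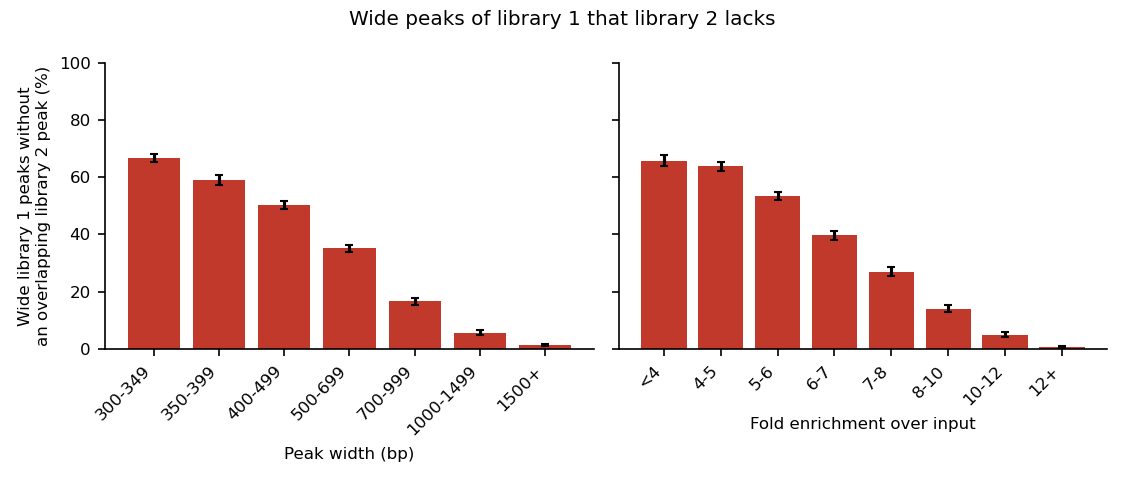
Share (%) of library 1 peaks of at least 300 bp that no library 2 peak overlaps, by peak width in bp (left) and by fold enrichment over input (right). Bars are shares and error bars are 95% Wilson intervals over peaks. The share goes from 66.7% in the narrowest bin to 1.20% in the widest, and from 65.8% in the weakest to 0.680% in the strongest.

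Some members were nevertheless strong or very wide. A fold enrichment of at least 8 was reached by 557 members (5.87%), and of at least 10 by 117. After the peak at Arid5a (chr1:36325764-36326424, fold enrichment 17.2) came members assigned to 1600014C23Rik at 13.9 and to Slco2b1, an organic anion transporter, at 13.5. The next 5 had the same value of 13.03, at Auh, Pitx1, Pcbp2, Fen1 and Znfx1. Pcbp2 encodes an RNA-binding protein, Fen1 the flap endonuclease of DNA replication and Znfx1 an antiviral RNA helicase. Members at Mapk14 (p38α) and Rnf169 had 12.7, those at Cerk (ceramide kinase), Nubp2, Pramel12 and Arhgap17 had 12.4, and that at Nol8 had 12.1. Of these 15 members, those at Pcbp2, Fen1, Mapk14, Nubp2 and Nol8 had their summits in promoters.

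The 10 widest members had fold enrichments from 3.27 to 10.4. The widest was 2511 bp and lay 7.01 kb from the TSS of Cdkn1a, which encodes the cell cycle inhibitor p21 (chr17:29098860-29101370), with a fold enrichment of 4.89 and a summit window that was 77.1% repeat-masked. That at Cadm4 (2485 bp) had the highest of the 10 fold enrichments. Those at Atf3 (2249 bp), Ifrd1 (2167 bp), Hspa5 (2152 bp) and Tmem178b (2054 bp) followed. Atf3 is a stress-induced transcription factor and Hspa5 the chaperone BiP of the endoplasmic reticulum. The summit windows of the members at Atf3 and Ifrd1 were also mostly repeat, 66.7% and 63.7%. Then came members at Mrc1 (1899 bp), which encodes the mannose receptor, at Rap1b (1815 bp), at Inpp5k (1735 bp) and at Tnfaip3 (1692 bp), which encodes the NF-κB inhibitor A20. Except for that at Tmem178b, 394 kb from the nearest library 2 peak, the 10 widest members each lay within 2.68 kb of one.

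Many members lay close to a library 2 peak. The median gap from a member to the nearest library 2 peak was 2.18 kb, against 3.66 kb for narrow peaks of library 1 only. A gap of up to 500 bp was found for 2267 members (23.9%, 95% Wilson interval 23.0 to 24.8), 3 of which touched a library 2 peak end to end without a shared base. At the other end, 1207 members (12.7%, 12.1 to 13.4) were over 50 kb from any library 2 peak. Within library 1 itself, 74.4% of members had another peak within 1 kb, against 85.9% of wide shared peaks and 59.9% of narrow unshared ones.

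On the X chromosome 118 of 236 wide library 1 peaks were members (43.7 to 56.3%), and on the autosomes 9369 of 25353 (37.0%, 36.4 to 37.6). The lowest share of an autosome was 32.2% on chromosome 6 and the highest 40.7% on chromosome 16. The overlap is part of the selection, so no test was made.

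The members lay mostly in introns and between genes. By the summit, 47.4% were in introns (46.4 to 48.4), 30.7% were intergenic (29.8 to 31.7), 18.1% were in promoters (17.4 to 18.9) and 3.77% were in exons (3.41 to 4.18). A promoter here is the 1 kb before and the 100 bp after the TSS of a curated RefSeq transcript. Promoters held 20.1% of wide shared peaks, a difference of -1.96 percentage points (95% Newcombe interval -2.95 to -0.97), and 10.9% of narrow unshared peaks, a difference of 7.27 points (6.46 to 8.10). Members over 3 kb from any TSS numbered 5959 (62.8%), against 60.8% of wide shared and 69.8% of narrow unshared peaks. The summit window was at least 50% repeat-masked in 8.41% of members, 5.68% of wide shared and 12.6% of narrow unshared peaks. Peaks within 1 kb of a tRNA gene were 0.379% of members and 0.776% of wide shared peaks, a difference of -0.40 points (-0.58 to -0.21).

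The promoter difference depended on how peaks of like strength were set together, which was added after seeing the data. Among wide peaks with a fold enrichment of 5 to 6, promoters held 19.5% of members and 16.9% of shared peaks, a difference of 2.56 points (0.48 to 4.63). At 6 to 8 they held 24.2% and 21.6%, a difference of 2.64 points (0.53 to 4.78). The difference was positive in each of the 5 bins of fold enrichment, and the intervals of the other 3 bins included 0. In the 5 bins of width it was negative, from -4.94 to -1.78 points.

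Members far from library 2 peaks lay more often in promoters than members beside them. Of the 2920 members over 10 kb from a library 2 peak, 29.7% were in promoters, against 15.3% of the 3526 members within 1 kb, a difference of 14.4 points (12.4 to 16.5). The share did not rise steadily with the gap, as it was 10.2% (9.20 to 11.4) in the 3041 members at 1 to 10 kb. CpG island-like sequence was taken as a window around the summit of at least 50% GC with an observed over expected CpG ratio of at least 0.6. It was at 21.1% of the far members, 6.02% of those at 1 to 10 kb and 9.73% of the near ones. The PU.1 motif was at 8.53% of the far and 5.13% of the near members, a difference of 3.39 points (2.16 to 4.66). The C/EBP motif differed by 1.52 points (0.57 to 2.50), the RUNX motif by 2.98 points (1.71 to 4.27) and the CTCF motif by 0.68 points (0.25 to 1.16). For DR1 the difference of 0.40 points had an interval from -0.45 to 1.28. The median fold enrichment was 5.42 in the far and 5.04 in the near members, and its part in these differences was not tested.

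**Figure D2:**
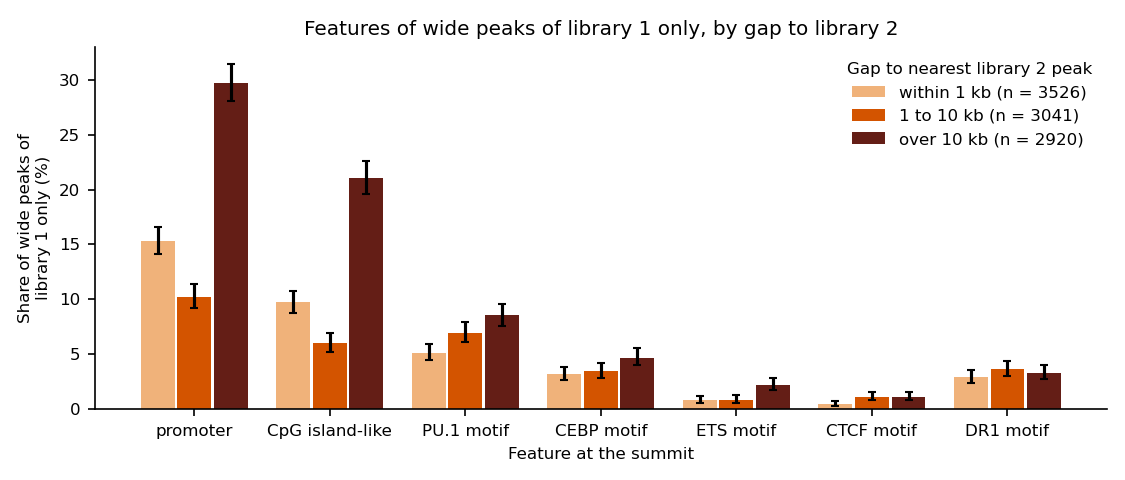
Share (%) of members with each feature at the summit, for members within 1 kb (n = 3526), 1 to 10 kb (n = 3041) and over 10 kb (n = 2920) from the nearest library 2 peak. Bars are shares and error bars are 95% Wilson intervals over peaks. Promoters held 29.7% of the far members, 10.2% of those at 1 to 10 kb and 15.3% of the near ones. DR1 stayed between 2.92% and 3.62%.

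Motifs were counted within 100 bp of each summit and in an equally long flank centred 2 kb to the left, on both strands. The paired comparison over members used the exact two-sided McNemar test with Benjamini-Hochberg adjustment over 37 motifs. It called 16 motifs more frequent at member summits (43.2%) and 2 less frequent, and 19 had no call. By the same test 22 motifs were more frequent at the summits of wide shared peaks and 18 at those of narrow unshared peaks. The number of calls also depends on the number of peaks tested, which was 9487, 16102 and 51749, so these counts do not compare motif content. The median GC content was 44.8% in summit windows and 45.3% in flank windows of members. The p-values and intervals cover counting error over peaks and not variation between libraries.

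Motifs of the macrophage enhancer factors were in excess at member summits. The PU.1 motif (GAGGAAGT or GAGGAACT) was at 641 summits (6.76%) and in 215 flanks (2.27%), a ratio of 2.98 (2.56 to 3.47, adjusted exact McNemar p = 6.01e-51). The C/EBP motif (TTGCNNAAT) was at 3.73% of summits and in 1.60% of flanks, a ratio of 2.33 (1.93 to 2.81, adjusted exact McNemar p = 1.01e-18). AP-1 (TGACTCA), the site of FOS and JUN dimers, had a ratio of 1.44 (1.26 to 1.64), RUNX (TGTGGTT) of 1.24 (1.11 to 1.38), STAT (TTCCNGGAA) of 1.74 (1.25 to 2.43) and the composite PU.1-IRF element of 1.28 (1.07 to 1.53). All 4 passed the test, but STAT and PU.1-IRF lost their calls at widths of at least 500 bp and in a window of 50 bp on either side, and PU.1-IRF also without the members within 500 bp of a library 2 peak. Shared wide peaks held the PU.1 motif at 10.3% of summits, so members were lower by 3.53 points (-4.22 to -2.84). For AP-1 the difference was -2.22 points (-2.84 to -1.60), for C/EBP -1.02 points (-1.52 to -0.51), and for STAT 0.09 points (-0.15 to 0.35).

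The element of PPARγ itself was not in excess. DR1, allowing up to 2 mismatches over the 12 bases of the repeat, was at 310 member summits (3.27%, 2.93 to 3.64) and in 305 flanks (3.21%), a ratio of 1.02 (0.87 to 1.19, adjusted exact McNemar p = 0.894). At wide shared summits it was at 4.66%, with 3.12% in flanks, a ratio of 1.496 (1.34 to 1.67, adjusted exact McNemar p = 2.24e-12). The difference in share at summits, members minus wide shared, was -1.40 points (-1.87 to -0.91). In narrow unshared peaks the ratio was also 1.02 (0.95 to 1.10). With at most 1 mismatch, an alternative added after seeing the data, DR1 was at 39 member summits and in 45 flanks, while wide shared peaks had it at 134 summits and in 74 flanks. Exact DR1 copies were at 1 member summit and in 5 flanks.

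No other receptor element was called more frequent at member summits with the flank 2 kb to the left, while DR4 was called with a flank 1 kb to the left. The AGGTCA core was at 12.8% of member summits and in 12.2% of flanks (ratio 1.05, 0.97 to 1.13), and at 15.5% of wide shared summits (ratio 1.22). NBRE (AAAGGTCA), an extended core that monomeric receptors bind, had a ratio of 1.20 (0.93 to 1.55) in members and 1.99 in wide shared peaks, with a difference of -0.72 points (-1.03 to -0.40). The repeats with 3, 4 and 5 bases between the cores had no call in members, with ratios of 0.93, 1.13 and 1.06. Those with 0 and 2 bases between were less frequent at summits, with ratios of 0.75 and 0.82. The call of DR2 was lost under 5 alternatives, with a ratio of 0.95 against the flank 1 kb to the left, and that of DR0 in a window of 50 bp on either side. The NF-κB motif was at 0.685% of member summits and in 0.748% of flanks (ratio 0.92, 0.65 to 1.28), against a ratio of 1.53 in wide shared peaks, a difference of -0.63 points (-0.86 to -0.38).

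CTCF stood the other way round. Its motif was at 83 member summits (0.875%, 0.71 to 1.08) and in 14 flanks (0.148%), a ratio of 5.93 (3.37 to 10.4, adjusted exact McNemar p = 3.12e-12). The ratio was 11.5 (2.71 to 48.8) at widths of at least 500 bp. It was at 0.429% of wide shared summits, and the difference was 0.45 points (0.24 to 0.67). Narrow unshared peaks had it at 0.781%, which differed from members by 0.09 points (-0.09 to 0.31). Of the 16 motifs called higher in members, CTCF was the one whose share exceeded that in wide shared peaks by an interval above 0.

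**Figure D3:**
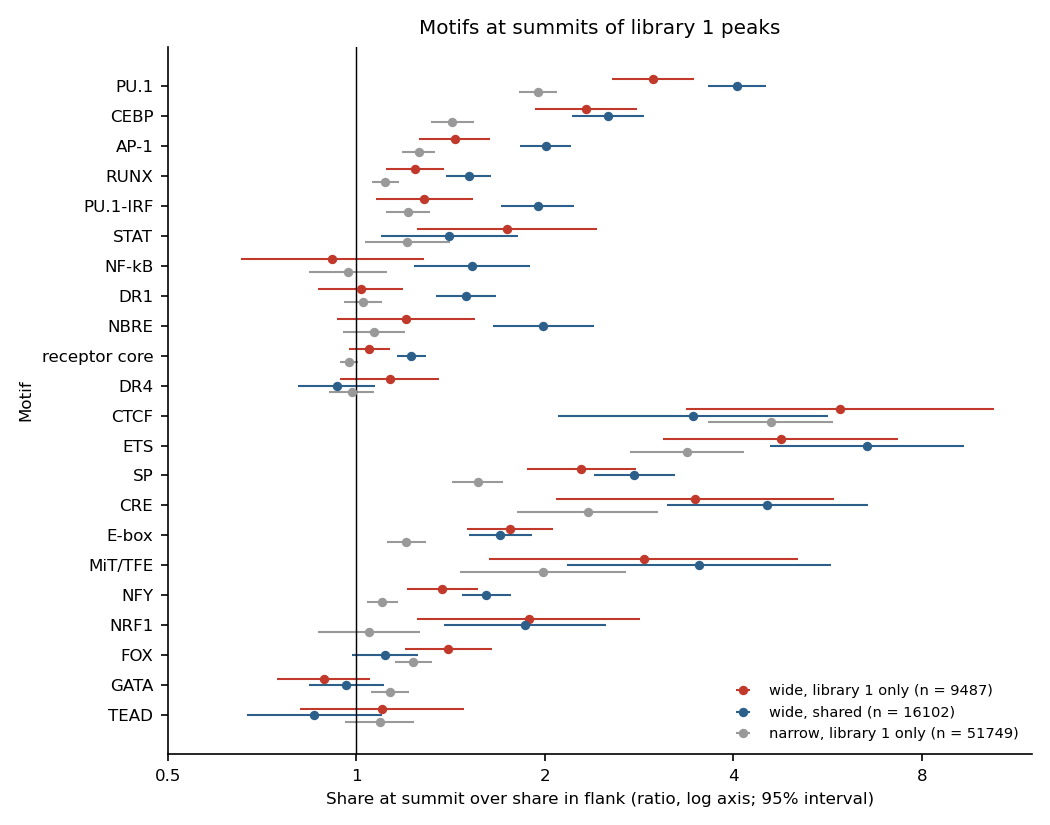
Ratio of the share of peaks with a motif at the summit to the share in the flank (log axis), for 22 of the motifs in members (red), wide shared peaks (blue) and narrow peaks of library 1 only (grey). Points are ratios and lines are 95% intervals over peaks. DR1 sits at 1.02 in members and 1.496 in wide shared peaks, while CTCF sits at 5.93 and 3.45.

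Promoter and distal members were each set against their own flanks, and PU.1 and the E-box were called higher in both. At the 1719 promoter members the ETS motif (CCGGAAGT) was at 5.29% of summits, with a ratio of 18.2 to the flank, the SP motif (GGGCGGGG) at 13.6%, with a ratio of 9.36, and the CRE (TGACGTCA) at 2.33%, with a ratio of 10. The E-box (CACGTG) was at 7.10% (ratio 4.36), NRF1 (GCATGCGC) at 2.68% (ratio 5.75), NFY (CCAATCA or CCAATGA) at 10.01% (ratio 2.42) and YY1 (AAGATGGC) at 3.14% (ratio 2.25). The MiT/TFE form of the E-box (TCACGTGA), bound by the lysosomal regulators TFEB and TFE3, was at 28 promoter summits and in no flank, and ZNF143 was at 11 and in none. PU.1 was also higher there (ratio 2.06). AP-1, RUNX, the AGGTCA core, ERR (TCAAGGTCA), DR0 and DR2 were lower at promoter summits than in flanks. At promoters 53.6% of members were CpG island-like, against 0.822% of distal members. A flank 2 kb from a promoter summit lies outside that promoter, so these ratios also reflect how promoter sequence differs from its surroundings. The part of base composition was not tested. Wide shared promoter peaks had like shares of ETS (5.16%), SP (13.7%) and the E-box (7.70%). Their PU.1 share was higher, 6.12% against 3.84% in promoter members.

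At the 5959 distal members 8 motifs were called higher, which were PU.1 (ratio 3.60, 2.98 to 4.34), C/EBP (2.85), AP-1 (1.74), RUNX (1.42), CTCF (6.11), PU.1-IRF (1.35), the E-box (1.51) and FOX (TGTTTAC, 1.23 to 1.83). FOX had been put in as a comparison motif of other tissues, and it was called higher over all members too, a call lost at widths of at least 500 bp. The other comparison motifs, GATA, TEAD, MEF2 and HNF1, had no call over all members. DR1 was at 3.79% of distal member summits and in 3.57% of flanks (ratio 1.06, 0.88 to 1.27). Distal wide shared peaks had it at 5.68% (ratio 1.81, 1.58 to 2.08), and the difference was -1.88 points (-2.54 to -1.21). At promoters the DR1 difference was -0.19 points (-1.08 to 0.80). Distal CTCF differed by 0.47 points (0.21 to 0.77).

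Strength differs between the classes by selection, so the main differences were taken again within bins of fold enrichment. At a fold enrichment of 5 to 6 DR1 was at 2.78% of members and 4.32% of wide shared peaks, a difference of -1.54 points (-2.57 to -0.54), and at 6 to 8 the difference was -1.48 points (-2.38 to -0.51). At 8 and over it was -1.59 points (-2.96 to 0.36). Below 4 it was 1.44 points the other way (-0.29 to 2.96). The CTCF difference was positive in each of the 5 bins, with an interval above 0 at 6 to 8 (0.45 points, 0.01 to 0.99) and at 8 and over (0.76 points, 0.16 to 2.02). For PU.1 it was -0.05 points at 5 to 6 (-1.49 to 1.37), -2.41 points at 6 to 8 (-3.79 to -0.95) and -4.15 points at 8 and over (-6.31 to -1.46).

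**Figure D4:**
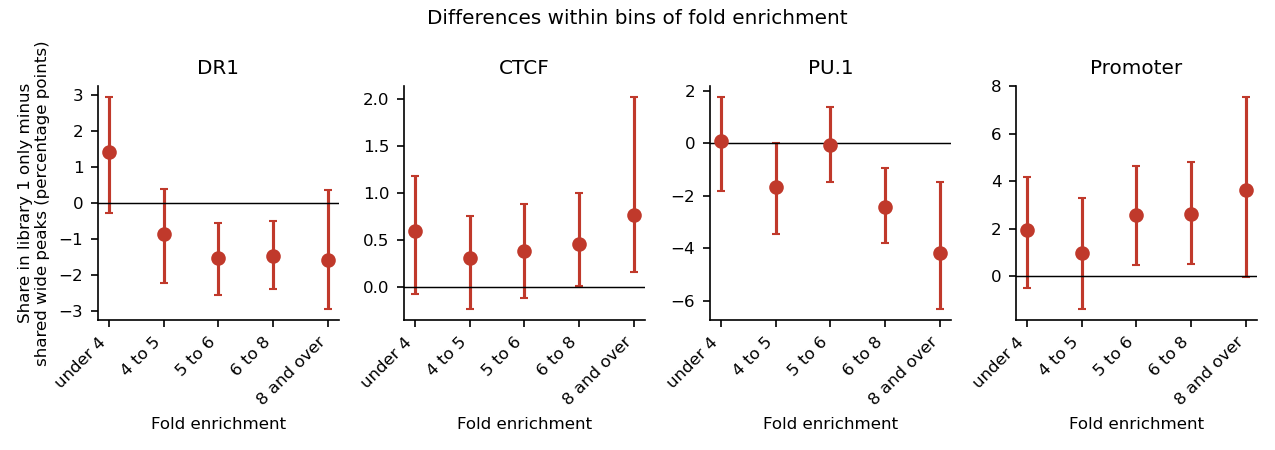
Difference in share (percentage points, members minus wide shared peaks) of DR1, CTCF and PU.1 motifs at summits and of promoter summits, within 5 bins of fold enrichment over input. Points are differences and error bars are 95% Newcombe intervals over peaks. DR1 is lower in members from 5 to 8 by about 1.5 points, CTCF is above 0 in each bin, and promoters are above 0 in each bin.

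The members were nearest to 5128 of 20923 protein-coding genes (24.5%), while 31.7% were nearest to a shared library 1 peak. A single member was assigned to 3172 genes, 2 to 4 to 1652 genes, and 10 or more to 40 genes. Of the genes with a member, 3387 (66.05%) also had a shared peak. Of genes with a shared peak 51.1% had a member, and of the 14296 genes without one 12.2% did. The sequence nearest to a gene had a median length of 66.01 kb for genes with a member and 44.1 kb for genes without. Members within 50 kb of the TSS of their gene made up 83.8%.

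The genes with the most members had long stretches of nearest sequence and many shared peaks. Runx1, a transcription factor of blood cell development, had 26, beside 51 shared peaks in 617 kb of nearest sequence. Cd44, the hyaluronan receptor, had 24, Tcf7l2, an effector of Wnt signalling, 21, Litaf and Nedd9 20 each, Klhl25 19, App, the amyloid precursor, 17, and Dapk1 and Sla 16 each. Pparg had 18 beside 14 shared peaks. The shared peaks counted here are of any width, and the 10 genes were chosen for their number of members. Among them Pparg, Litaf and Sla had more members than shared peaks. Their wide shared peaks numbered 8, 12 and 14. Over all library 1 peaks of at least 300 bp, 37.1% were members.

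The 18 members of the Pparg locus lay between chr6:115359186 and chr6:115481144, a span of 122 kb. Their fold enrichment ran from 3.12 to 6.22 with a median of 4.49, and their widths from 305 to 1012 bp. Of the 18, 16 were in introns, 5 lay within 1 kb of a library 2 peak, and 1 had a DR1 at the summit. At Runx1 the 26 members spanned 434 kb with fold enrichments of 2.75 to 7.11, 1 with a DR1 and 0 with the PU.1 motif. At Cd44 16 of 24 members lay within 1 kb of a library 2 peak, at a median gap of 686.5 bp. Over all 9487 members, 47.4% were in introns and 3526 lay within 1 kb of a library 2 peak. DR1 was at 3.27% of all member summits and the PU.1 motif at 6.76%. Whether single loci departed from these shares was not tested.

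Among the other genes fixed for naming, the number of members ran from 0 to 11, beside the 24.5% of all genes with at least 1. Rxra, the main partner of PPARγ, had 5 and Rxrb had 0. Cebpb had 11, Bhlhe40 7 (with 30 shared peaks in 285 kb of nearest sequence), Klf4 6 (with 25 in 696 kb), Cebpa 3, Bhlhe41 2, and Spi1, which encodes PU.1, had 1 with a fold enrichment of 9.77 in an intron. Of receptors for niche signals, Tgfbr1 had 10 members, Notch2 6, Tgfbr2 5, Csf2ra 4, Notch1 3 and Csf2rb 2, and of their mediators Rbpj and Stat5b had 1 each and Stat5a and Smad4 0. Of lipid genes, Abca1, the cholesterol exporter, had 8, Cd36, the fatty acid translocase, 6, Abcg1 and Plin2 5 each, Cidec 2, Fabp1 1, and Fabp4 and Nr1h3 0. Of AM markers Marco, Itgax and Chil3 had 2 each and Siglecf and Car4 0.

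The 20 AM marker genes all had a peak in both libraries, and 15 had a member. These markers and the lists below were chosen with earlier results of these data known. The markers also hold Pparg and genes of the PPAR target list. Peaks at these loci therefore cannot check the cell type. Gene lists were described by how many of their genes had a member, beside the 24.5% of all genes and a median of 0 members over all genes. Of all genes 31.7% had a shared peak, and of the genes with a shared peak 51.1% had a member. The latter share is the nearer one for lists whose genes mostly had a shared peak. Of the AM signature 31 of 40 genes had one (77.5%, 62.5 to 87.7), with a median of 2 members a gene, and all 40 had a shared peak. Of the macrophage transcription factors 39 of 50 had one (78.0%). The highest fold enrichments were 10.7 at Fos (36.1 kb from the TSS) and at Myc (192.5 kb), 9.77 at Spi1 (1.695 kb) and 8.59 at Etv6 (99.3 kb). Of lysosome and phagocytosis genes 28 of 36 had a member (77.8%), with Atp6v0e, Hexa and Tfeb among the strongest. Hexa encodes a lysosomal hexosaminidase and Tfeb the regulator of lysosome genes. Of niche signal receptors and mediators 27 of 36 had a member (75%), led by Notch1 (10.4), Notch2 (9.48), Ski (9.18) and Tgfbr1 (8.59), and of inflammation and NF-κB genes 23 of 34 (67.6%, or 41.2% without the members within 500 bp of a library 2 peak), led by Traf6 (9.77), Tnfaip3 (9.18), Irak3 (8.89) and Cxcl2 (8.59). In the AM signature the strongest members lay at Mrc1 (8.89), Cxcl2 (8.59), Cd9 and Mmp8 (8.29 each). The median number of members a gene was 2 for the lysosome list, 1.5 for the transcription factors, 1 for the niche and inflammation lists, and 0 for the lists that follow.

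Of PPAR target and lipid genes 23 of 50 had a member (46.0%, 33.0 to 59.6), or 30.0% without the members within 500 bp of a library 2 peak, with the strongest at Fabp5 (fold enrichment 9.48), Angptl4 (7.998), Cpt1a (7.70) and Elovl5 (7.11). Fabp5 carries fatty acids in the cytosol, Angptl4 inhibits lipoprotein lipase, Cpt1a admits fatty acids to mitochondria and Elovl5 elongates polyunsaturated fatty acids. Of genes of cholesterol efflux and synthesis 14 of 34 had one (41.2%), with Abca1 (8.29), Osbpl8 (7.68) and Nr1h2 (7.11) among the strongest. Of markers of other macrophages and monocytes 12 of 30 had a member (40%), led by Mrc1, Id3, Itgam and Nr4a1, of proliferation genes 11 of 34 (32.4%), led by Top2a, Rrm2, Aurkb and Cdk6, and of interferon response genes 7 of 30 (23.3%), with Irf1, Gbp5 and Stat2 among the strongest.

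Lists of other cell types were near or below the share of all genes. Members lay at 4 of 16 endothelial genes (25%), led by Vwf, Flt1, Cdh5 and Egfl7, at 3 of 16 adipocyte genes (18.8%, or 6.25% without the members within 500 bp of a library 2 peak), which were Adipoq, Lipe and Retn, and at 4 of 22 lung epithelial genes (18.2%), which were Muc1, Lpcat1, Epcam and Scgb1a1. They lay at 3 of 19 granulocyte genes (15.8%), Csf3r, Ccr3 and Cxcr2, and at 1 of 22 genes each of the lymphocyte list (Klrb1c), the neuron list (Dlg4) and the liver list, or 4.55%. The median length of nearest sequence was 66.5 kb for the AM signature, 127 kb for the macrophage transcription factors, 27.3 kb for the interferon genes and 171 kb for the neuron genes, against 48.8 kb for all genes.

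**Figure D5:**
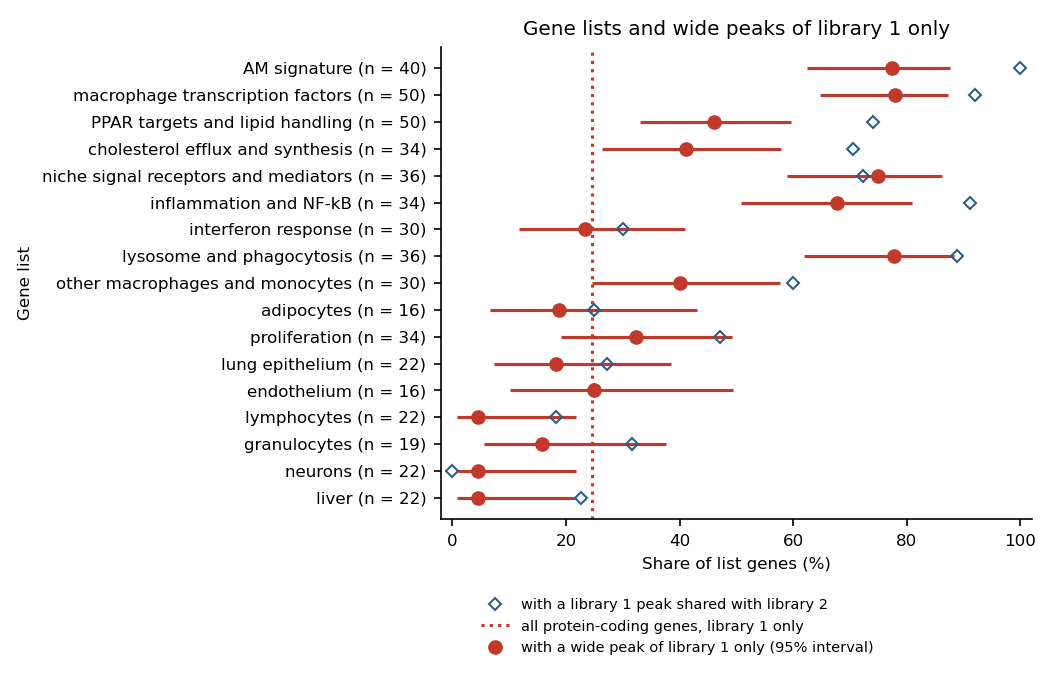
Share (%) of the genes in each of 17 lists with at least 1 member (red points with 95% Wilson intervals over genes) or with a library 1 peak that library 2 shared (open diamonds). The dotted line marks the 24.5% of all protein-coding genes with a member. No line is drawn for the diamonds, for which the share of all protein-coding genes was 31.7%. The AM signature is at 77.5% and 100%, and the neuron list at 4.55% and 0%.

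Members were also assigned to listed genes to which no shared peak was assigned, beside the 12.2% of all genes without a shared peak that had a member. Assignment is by the nearest TSS, so a shared peak in the neighbourhood can count for an adjacent gene. Among niche signal genes 7 of the 10 without a shared peak had a member. They were the BMP receptors Bmpr1a and Bmpr2, the integrin Itgb6, the SMAD genes Smad3 and Smad7, Csf2rb2 and Socs1, the feedback inhibitor of cytokine signalling. Of interferon response genes 4 of 21 did, which were Gbp5, Isg20, Psmb9 and Stat2, and of proliferation genes 4 of 18, which were Ccnb2, Mcm5, Rrm2 and Top2a. Of PPAR target and lipid genes 1 of 13 did, and of the lung epithelial and lymphocyte genes none of 16 and none of 18. The count was 2 of 3 for inflammation, 2 of 4 each for transcription factors and lysosome genes, and 2 of 10 for cholesterol genes. It was 1 of 12 each for endothelial, adipocyte and other macrophage genes, 1 of 17 for liver, 1 of 22 for neurons and none of 13 for granulocytes. Nearest sequence had a median of 86.9 kb for the niche genes, against 48.8 kb for all genes. Over all genes 1741 had a member and no shared peak, and they held 2156 members (22.7%). Those with the most were Gdi2, Comtd1 and Slc9a8, with 5 each, chosen after their values were seen.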

How the data were processed

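PPARγ HT-ChIPmentation peaks of 2 ChIP libraries were used, and the 2 inputs were left out. The submitters' processing notes name bcl2fastq (2.20.0.422) with CASAVA for base calls, cutadapt for trimming, Bowtie2 and SAMtools for mapping to mm10, and MACS3, with which the authors called each library against input at a q of 0.05. The deposited lists give positions, a fold enrichment (a linear ratio), −log10 of the p-value and q-value, a score made from the latter, and the summit. They carry no counts, so depth cannot be read from them. The authors give sequencing quality data for HT-ChIPmentation in their supplement, which was not used here.

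Members and lists were chosen with earlier results of these data known. Overlap, gaps and widths were computed with Python 3.11.15, numpy 2.4.6 and pandas 2.3.3, sequences were read from the RefSeq copy of mm10 (GRCm38.p6) with pysam 0.24.0 and samtools 1.23.1, and intervals and exact McNemar tests used scipy 1.17.1. Genes are the nearest coding TSS of curated RefSeq transcripts, and 513 list entries matched and 2 did not. Named genes were those of the 15 strongest and 10 widest members, the 10 with most members, up to 4 per list and 33 fixed genes, and a few genes these rules name are not reported here. Shares have 95% Wilson intervals, differences Newcombe intervals and ratios log-normal intervals, all for counting error only. The other motifs searched were KLF (CCACACCC), SMAD (GTCTAGAC), RBPJ (GTGGGAA), EGR (GCGTGGGCG) and, by name, MARE, IRF, MEF2 and HNF1. The motif of GATA factors was AGATAAG. That of TEAD, the effector of Hippo signalling, was ACATTCCA. Motifs overlap one another (MiT/TFE holds the E-box, MARE the AP-1 site, and NBRE, ERR and direct repeats the AGGTCA core). Alternatives changed the width, q and fold limits, the gap, the window, the flank and the annotation, and 1 mismatch in DR1, the peaks over 3 kb from a TSS and the bins of fold and width were added after seeing the data. On simulated peaks with planted motifs the motif test called each planted motif, and also the AGGTCA core and NBRE, whose letters a DR1 element can hold. The simulated summits and flanks were random bases of the same composition. The simulation therefore does not cover calls that arise where summit and flank differ in composition, as at promoters.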

Additional observations from a re-analysis of the deposited data

How the results depend on the processing

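No paired analysis was possible because the inputs enter only through the authors' peak calls and the ChIP libraries form 1 group, and leaving out replicate 1 leaves no members. The 9487 members became 5683 at a fold enrichment of at least 5, 4989 at 400 bp, 2672 at 500 bp and 25589 without replicate 2, and their 5128 genes 3294 at 400 bp, 2013 at 500 bp and 7848 without replicate 2. The promoter share of 18.1% became 22.1% at a fold of at least 5, 19.1% at 500 bp, 19.4% without replicate 2, 37.2% with promoters within 3 kb of a TSS and 21.5% with all transcripts. The 16 called motifs became 10 at 500 bp (all 10 among the 16) and 25 without replicate 2. The DR1 ratio of 1.02 was 0.97 with the flank to the right or a 50 bp window, 0.87 with 1 mismatch and, called, 1.31 without replicate 2. Without members within 500 bp of a library 2 peak, the list shares became 30.0% (from 46.0%) for PPAR targets and lipid handling, 41.2% (from 67.6%) for inflammation and NF-κB, and 6.25% (from 18.8%) for adipocytes. The cause was not tested in any of these.

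Alternatives within bins were added after seeing the data. The DR1 difference of -1.40 points turned to 1.44 below a fold of 4, and its interval included 0 at folds of 4 to 5 (-0.85) and 8 and over (-1.59) and in the bins of width from 400 (-0.85), 700 (-1.20) and 1000 bp (-1.16). The CTCF difference of 0.45 points had an interval including 0 at folds under 4 (0.60), 4 to 5 (0.30) and 5 to 6 (0.38) and in the bins of width from 300 (0.44), 400 (0.032), 700 (0.45) and 1000 bp (0.27). The PU.1 difference of -3.53 points was 0.10 under 4, -1.66 at 4 to 5, -0.052 at 5 to 6, -1.496 in the bin from 400 bp and -3.81 in that from 1000 bp. The promoter difference of -1.96 points was -0.32 at 500 bp or more, 0.63 at a fold of at least 5, 1.92, 0.99, 2.56, 2.64 and 3.61 in the 5 bins of fold, and -1.91 and -1.78 in the 2 widest bins of width. Directions also turned, with intervals including 0, for C/EBP (0.55 and 0.17 points at folds of 4 to 5 and 6 to 8, 0.505 and 0.070 in the bins from 300 and 400 bp), AP-1 (0.29, 0.33 and 0.26 at under 4, 4 to 5 and 8 and over), NF-κB (0.35 under 4) and NBRE (0.70 under 4, 0.32 at 8 and over).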
